A study of Mus musculus with 6 samples.

Results

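Transcripts of osteoclasts, the multinucleated cells that resorb mineralised matrix, and of the RANK signalling axis were measured in aortic roots of klotho-deficient and wild-type mice. The members were 10 genes: Dcstamp, Ocstamp, Acp5, Ctsk, Oscar, Nfatc1, Tnfrsf11a, Tnfrsf11b, Tnfsf11 and Atp6v0d2. Every probe set that the platform annotation gives to exactly 1 of these symbols was taken, which made 19 probe sets out of 45037 that are no array control. The klotho-deficient group had 3 arrays, from homozygotes for the mutant allele of klotho, and the wild-type group had 3 arrays, from homozygotes for the normal allele. All were C57BL/6J albino mice aged 6.0 to 6.5 weeks. Each array carried RNA pooled from 3 mice, so 9 mice stood behind each genotype and the spread is that between pools. The dissected root held the leaflets of the aortic valve, the annulus and part of the ascending aorta, a mixed tissue in which fewer cells of a type and less RNA per cell cannot be told apart.

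Osteoclasts form by fusion of monocyte-lineage precursors. The ligand RANKL (Tnfsf11), made by stromal cells and T cells, binds the receptor RANK (Tnfrsf11a) on the precursor, and the secreted decoy receptor osteoprotegerin (Tnfrsf11b) captures the ligand. RANK signalling, helped by co-receptors such as Oscar, induces the transcription factor NFATc1 (Nfatc1), which turns on the genes for fusion (Dcstamp, Ocstamp, Atp6v0d2) and for resorption (Acp5, Ctsk). In arteries osteoprotegerin is also expressed by the vessel wall, and mice that lack it develop calcified arteries. In the heart Nfatc1 is known from endocardial cells of the developing valves.

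NFATc1 binds the core sequence GGAAA, and the promoters of its targets Oscar, Ctsk and Acp5 are shown to place the members that the factor is known to regulate. RefSeq sequence of GRCm38.p6, from 250 bases before to 50 bases after a transcript start, was at hand for 5 of the 10 members (Tnfrsf11a, Ctsk, Oscar, Acp5 and Tnfsf11), in 7 windows because Acp5 has 3 starts. Sequences run 5′ to 3′ on the gene's strand, and capitals mark GGAAA or, where the match is on the opposite strand, TTTCC.
Oscar, chr7:3616108-3616407, minus strand: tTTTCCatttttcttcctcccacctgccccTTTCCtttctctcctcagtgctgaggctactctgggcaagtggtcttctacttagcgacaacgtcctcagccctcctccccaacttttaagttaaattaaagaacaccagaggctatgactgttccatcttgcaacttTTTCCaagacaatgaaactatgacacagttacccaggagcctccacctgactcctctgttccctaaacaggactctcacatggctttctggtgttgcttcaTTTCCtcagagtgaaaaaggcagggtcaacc
Ctsk, chr3:95498960-95499259, plus strand: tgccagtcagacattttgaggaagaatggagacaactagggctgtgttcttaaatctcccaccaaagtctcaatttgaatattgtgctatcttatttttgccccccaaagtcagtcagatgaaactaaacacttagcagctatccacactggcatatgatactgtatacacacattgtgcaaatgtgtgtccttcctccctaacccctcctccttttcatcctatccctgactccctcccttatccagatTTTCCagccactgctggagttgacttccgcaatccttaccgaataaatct
Acp5, first listed start, chr9:22135697-22135996, minus strand: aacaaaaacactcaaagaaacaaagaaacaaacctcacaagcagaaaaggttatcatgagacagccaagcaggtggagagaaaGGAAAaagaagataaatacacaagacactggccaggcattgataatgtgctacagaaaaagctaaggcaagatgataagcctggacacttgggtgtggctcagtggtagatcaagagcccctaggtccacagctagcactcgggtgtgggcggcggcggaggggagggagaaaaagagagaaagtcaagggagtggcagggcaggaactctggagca
The Oscar window held 4 matches, those of Ctsk and Tnfsf11 and this Acp5 window 1 each, and the Tnfrsf11a window 0. The other Acp5 windows, not printed, held 1 and 2 matches, and which of the 3 starts was used in these roots is not known here. Among all 32851 promoter windows, 61.3% held at least 1 match to GGAAA on either strand and 2.65% held 4 or more. The AP-1 motif TGANTCA, searched on both strands, was in 0 of the 7 windows and in 7.81% of all windows. A match is a string of letters and not a binding site.

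Scaling was even over the arrays, while agreement between them was not. Log2 signals of probe sets with a mean above background correlated at 0.9192 to 0.9547 among klotho-deficient arrays. Among wild-type arrays the correlations were 0.9514 to 0.9731, and between the genotypes 0.9274 to 0.9625. Y-linked transcripts also differed between arrays, which touches several members. The deposited intensities had the same 2% trimmed mean, 1500.01, on every array, and medians from 425.6 to 556.6. The level of background was taken as 161.8, the highest signal among 27 control probe sets for Bacillus transcripts, and 69% to 75.4% of probe sets per array lay above it. The targeted gene, Kl, gave 138.3, 217.4 and 189.1 on klotho-deficient arrays, against 166.7, 184.7 and 202.1 on wild-type arrays, and whether its probes lie in the mutated part is not known here, so it does not check the labels. Y-linked transcripts were at background on klotho-deficient replicates 2 and 3 (Kdm5d at 16.1 and 5.8) and present on klotho-deficient replicate 1 (2516.3) and on all wild-type arrays (2512.1 to 3267.9), while Xist was present on all 6 arrays (19873.8 to 36290.2). Differences carried by klotho-deficient replicates 2 and 3 therefore cannot be told apart from a difference in the sex of the pooled mice.

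**Figure D1:**
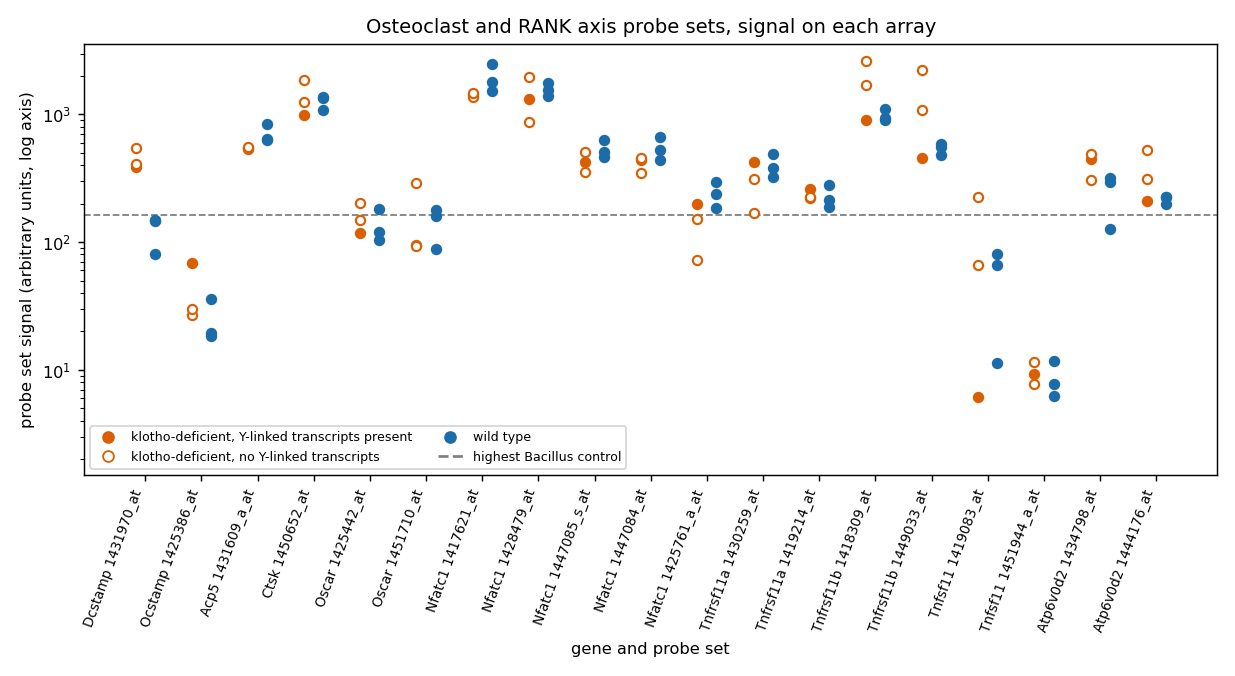
Signal of each of the 19 probe sets on each array, on a log axis in arbitrary units, with klotho-deficient arrays (orange, open where no Y-linked transcript was present) left of wild-type arrays (blue) and the highest Bacillus control, 161.8, as a dashed line. Signals of different probe sets are not comparable with each other; Dcstamp is above the line on all klotho-deficient arrays and under it on all wild-type arrays, while Ocstamp and the a_at probe set of Tnfsf11 are under it everywhere.

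In the genotype comparison no member passed the test across the whole array, and the fusion gene Dcstamp stood nearest to it. Limma, with Benjamini-Hochberg adjustment over all 45037 probe sets, called 0 probe sets (0%) at an adjusted p under 0.05, and so 0 of the 19 members. At an unadjusted p under 0.05, 1 member probe set was higher (5.26%) and 0 were lower, where 2.86% and 2.5% of all probe sets were. The arrays of the genotypes did not overlap in 1 member probe set that was higher (5.26%, against 5.96% of all probe sets) and in 2 that were lower (10.5%, against 5.71% of all). Differences in log2 signal, klotho-deficient minus wild type, were above 0 for 11 members and below 0 for 8, with a median of 0.07 against 0.01 over all probe sets. By counts, the members as a set were thus close to the array as a whole.

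**Figure D2:**
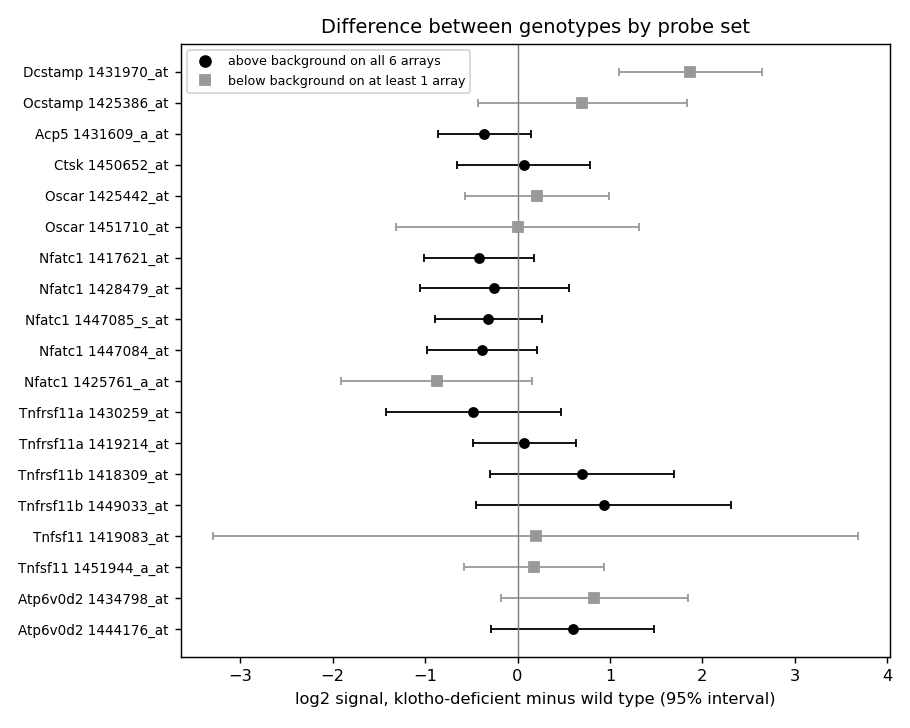
Difference in log2 signal, klotho-deficient minus wild type, for each probe set with its 95% interval from limma; black circles were above the highest Bacillus control on all 6 arrays and grey squares were not. Dcstamp, at 1.87, is the 1 probe set whose interval, not adjusted for the number of tests, lies clear of 0.

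Dcstamp encodes a transmembrane protein required for osteoclast precursors to fuse. Its only probe set, 1431970_at, gave signals of 388.1, 405.8 and 545 in klotho-deficient roots, against 148.7, 81.1 and 145.6 in wild-type roots. Every klotho-deficient array was above every wild-type array, and the lowest klotho-deficient value was 2.61 times the highest wild-type value. All 3 wild-type signals were under the highest Bacillus control. The klotho-deficient mean on the log2 scale was 2.73 times that control. This bounds the ratio of the means from below and takes no account of the spread between pools. As fitted, the difference was 1.87 ± 0.32 (SE; 95% interval 1.10 to 2.64), with means of 446.3 ± 85.9 in klotho-deficient roots, against 125.1 ± 38.2 in wild-type roots (SD, n = 3). Its p-value ranked 66 of 45037 and the limma adjusted p was 0.639, so Dcstamp did not pass. The excess was shared by klotho-deficient replicate 1, the pool with Y-linked transcripts, and by replicates 2 and 3, the pools without them.

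The partner of Dcstamp in fusion was not detected. Ocstamp, which encodes a related multipass membrane protein, gave 68.9, 26.7 and 29.8 in klotho-deficient roots, against 18.3, 19.4 and 36 in wild-type roots. All 6 signals were under the highest Bacillus control, so no fold is given. Atp6v0d2, a subunit of the vacuolar proton pump that is abundant in osteoclasts and also needed for fusion, was measured by 2 probe sets. Probe set 1434798_at gave 444.4, 489.5 and 308.3 in klotho-deficient roots, against 319.3, 293.2 and 127.5 in wild-type roots. The arrays overlapped only by klotho-deficient replicate 3 lying under wild-type replicate 1, and wild-type replicate 3 was the 1 array under background. Its difference was 0.83 ± 0.42 (95% interval -0.18 to 1.84, limma adjusted p = 0.939), and it was 0.41 without wild-type replicate 3.

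Probe set 1444176_at of Atp6v0d2 gave 209.5, 530.1 and 314.5 in klotho-deficient roots, against 225, 225.4 and 198.6 in wild-type roots. Here klotho-deficient replicates 2 and 3 were above all wild-type arrays and replicate 1 was within the wild-type range. Its difference, 0.60 ± 0.36 (limma adjusted p = 0.943), was -0.04 with a covariate for the arrays without Y-linked transcripts, which leaves klotho-deficient replicate 1 as the only array to set against wild type. It was 0.92 without klotho-deficient replicate 1 and 0.25 without replicate 2. The same covariate left probe set 1434798_at at 0.96. The 2 probe sets of the gene thus differed in which klotho-deficient arrays were high.

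Genes of the resorption machinery were detected on all arrays and did not pass. Acp5 encodes tartrate-resistant acid phosphatase, the enzyme stained to identify osteoclasts. Its signals were 536.3, 541.6 and 552.6 in klotho-deficient roots, against 629.5, 646.5 and 834.5 in wild-type roots. All klotho-deficient arrays lay under all wild-type arrays, and the SD was 8.31 among klotho-deficient arrays, against 114 among wild-type arrays. The difference was -0.36 ± 0.21 (95% interval -0.86 to 0.14, limma adjusted p = 0.943), and it was -0.23 without wild-type replicate 3, the highest array. Acp5 therefore did not pass, although its arrays did not overlap.

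Ctsk encodes cathepsin K, the collagen-cleaving protease of osteoclasts, which fibroblasts also make. Its signals were 983.1, 1243.6 and 1870.6 in klotho-deficient roots, against 1075.4, 1347.8 and 1375.7 in wild-type roots. The highest and the lowest array were both klotho-deficient. The difference was 0.07 ± 0.30, with a 95% interval of -0.65 to 0.79, and leaving out klotho-deficient replicate 3 (-0.19) or wild-type replicate 1 (-0.05) turned its direction. No difference in Ctsk was detectable, and the interval leaves room for a change of up to 0.79 on the log2 scale.

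**Figure D3:**
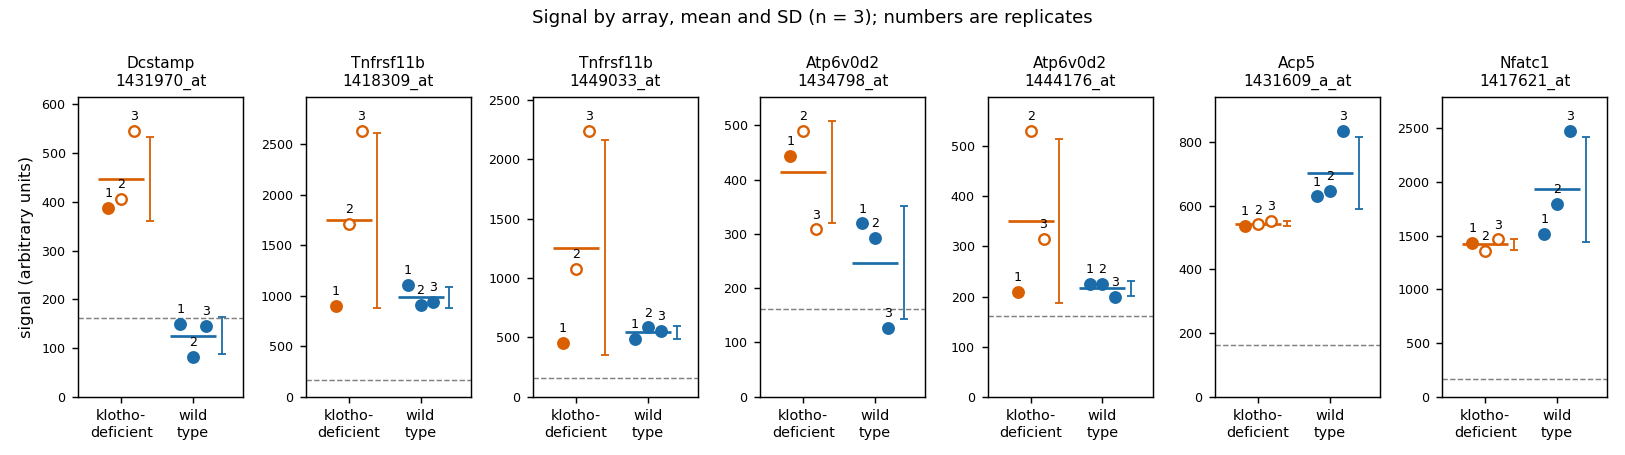
Signal on each array (points, numbered by replicate), mean (line) and SD (bar, n = 3) for 7 probe sets, klotho-deficient in orange on the left and wild type in blue on the right, with open points for arrays without Y-linked transcripts and a dashed line at the highest Bacillus control. Dcstamp is higher on all 3 klotho-deficient arrays; Tnfrsf11b is high on klotho-deficient replicates 2 and 3 only; Acp5 and Nfatc1 are lower on all 3.

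The decoy of the RANK axis was high on klotho-deficient replicates 2 and 3 only. Tnfrsf11b was measured by 2 probe sets that were designed from the same transcript and so are not independent. Probe set 1418309_at gave 896.9, 1711.3 and 2631.2 in klotho-deficient roots, against 1106.6, 912.5 and 938 in wild-type roots. Klotho-deficient replicates 2 and 3 were above every wild-type array, replicate 3 at 2.38 times the highest of them. Replicate 1 was close to wild type, just under the lowest wild-type array. Probe set 1449033_at gave 452.1, 1078 and 2238.2 in klotho-deficient roots, against 485.2, 584.7 and 555 in wild-type roots, the same pattern with replicate 3 at 3.83 times the highest wild-type array.

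The differences for Tnfrsf11b were 0.70 ± 0.41 and 0.93 ± 0.57 (limma adjusted p = 0.943 for each), so neither passed. Without klotho-deficient replicate 1 they were 1.11 and 1.52, and without replicate 3 they were 0.34 and 0.37. With the covariate for arrays without Y-linked transcripts they were -0.13 and -0.26. The summed signal of 7 cartilage markers moved over the same arrays. It was 6524.4, 16418.3 and 34108.4 on klotho-deficient replicates 1, 2 and 3, against 8757.3, 10267.8 and 8675.6 in wild-type roots. The largest part was Comp, at 2358.2, 5908.9 and 16900.9 on klotho-deficient arrays, against 3033.7, 4233.2 and 4487.4 in wild-type roots. All 7 genes had a difference above 0, but Hapln1 (0.02) stayed within the wild-type range. Among the 7, Col2a1, the main collagen of cartilage, gave 242.2, 2890.8 and 4225.9 on the 3 klotho-deficient arrays, against 193.2 to 417.6 in wild-type roots. The part of cartilage content and of sex in the Tnfrsf11b values was not tested.

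Tnfsf11, the ligand, was at background. Probe set 1419083_at gave 6.1, 223.7 and 66.4 in klotho-deficient roots, against 11.4, 65.6 and 80.6 in wild-type roots, with klotho-deficient replicate 2 the only array above the highest Bacillus control. Probe set 1451944_a_at gave 7.7 to 11.5 in klotho-deficient roots, against 6.2 to 11.8 in wild-type roots. A ratio of ligand to decoy was therefore not formed.

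Tnfrsf11a, the receptor, was above background on all arrays in both of its probe sets. Probe set 1430259_at gave 426.9, 311.3 and 169.2 in klotho-deficient roots, against 493.8, 378.3 and 324.2 in wild-type roots. Its difference of -0.48 ± 0.39 (limma adjusted p = 0.955) depended on single arrays: it was -0.11 without klotho-deficient replicate 3, -0.77 without klotho-deficient replicate 1 and -0.31 without wild-type replicate 1. With the covariate for Y-linked transcripts it was 0.12. Probe set 1419214_at gave 260.3, 220.7 and 227 in klotho-deficient roots, against 278.1, 212.9 and 189.4 in wild-type roots. It differed by 0.07 ± 0.23 (95% interval -0.49 to 0.63). The genotypes overlapped in both, and the probe sets of the receptor did not share a direction.

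Oscar, the immunoglobulin-like co-receptor that strengthens RANK signals, was near background. Probe set 1425442_at gave 117.7, 201.3 and 149.9 in klotho-deficient roots, against 104.4, 182.3 and 120.7 in wild-type roots. Its other probe set, 1451710_at, gave 94.9, 291.7 and 92.5 in klotho-deficient roots, against 179.7, 88.3 and 161.4 in wild-type roots. Each probe set exceeded the highest Bacillus control on 1 array per genotype.

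Nfatc1, the transcription factor downstream of RANK, was lower in klotho-deficient roots in all 5 of its probe sets, none of which passed. The brightest, 1417621_at, gave 1428.6, 1358.9 and 1463.8 in klotho-deficient roots, against 1518.3, 1796.8 and 2471.7 in wild-type roots. The arrays did not overlap, with wild-type replicate 3 well above the others. The difference was -0.42 ± 0.25 (95% interval -1.01 to 0.18, limma adjusted p = 0.943) and was -0.22 without wild-type replicate 3. The sum of 7 endothelial and endocardial markers was also highest on that array. It was 22564.9 to 27929.9 on klotho-deficient arrays, against 26216.1, 26748.6 and 42899.1 on wild-type replicates 1, 2 and 3. Each of these genes was highest on wild-type replicate 3 except Npr3, which was lowest there (2544.9, against 2999.5 to 5270.8 elsewhere). Differences were above 0 for 2 of the 7 and below 0 for 5. The part of these markers in the Nfatc1 values was not tested.

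The other Nfatc1 probe sets overlapped between the genotypes. Probe set 1428479_at gave 1317.6, 880.1 and 1963.3 in klotho-deficient roots, against 1395.1, 1772.2 and 1555.1 in wild-type roots, and leaving out klotho-deficient replicate 2 turned its direction (0.04), while without replicate 3 it was -0.54. The pair 1447085_s_at and 1447084_at, designed from the same sequence, differed by -0.32 ± 0.24 and -0.38 ± 0.24, and ranged from -0.53 to -0.19 with any 1 array left out. The dimmest, 1425761_a_at, gave 198.4, 71.9 and 151.5 in klotho-deficient roots, against 240, 298.3 and 186.5 in wild-type roots, with a difference of -0.88 ± 0.43 (limma adjusted p = 0.934). Without klotho-deficient replicate 2 this was -0.45, and with the covariate for Y-linked transcripts -0.26. Across the 5 probe sets the differences ran from -0.88 to -0.25; they measure 1 gene and are not replicates of the comparison. The known NFATc1 targets among the members had no common direction, with Dcstamp and Atp6v0d2 above 0, Acp5 below 0 and Ctsk near 0. Oscar, near background, differed by 0.21 in 1 probe set and was near 0 in the other. Ocstamp was under background on all arrays and gives no direction.

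The wider osteoclast programme was examined in 10 gene lists, of which 145 of 152 genes were measured, each by its brightest probe set. No gene in them passed (0 of 145 at an adjusted p under 0.05), 84 had a difference above 0 and 61 below 0, and the median was 0.04 against 0.00 over all 18193 genes. The arrays did not overlap in 9 genes that were higher (6.21%, against 5.96% of all probe sets) and in 6 that were lower (4.14%, against 5.71% of all probe sets). Over all lists together these counts were close to those of the array as a whole, while single lists differed. Of each list, the 3 genes of smallest p are named among those whose mean exceeded background in at least 1 genotype.

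Other osteoclast genes had 12 of 19 differences above 0 and a median of 0.08. Their arrays did not overlap in 3 genes that were higher (15.8%, against 5.96% of all probe sets). They did not overlap in 1 that was lower (5.26%, against 5.71% of all probe sets). Slc9b2, a sodium-proton exchanger of osteoclasts, measured 674.5 ± 121 in klotho-deficient roots, against 370.4 ± 30.8 in wild-type roots (0.85 ± 0.22, limma adjusted p = 0.807), with no overlap. Car2, the carbonic anhydrase that supplies protons for resorption, measured 421.7 ± 66.1 in klotho-deficient roots, against 291.9 ± 23.5 in wild-type roots (limma adjusted p = 0.926), also with no overlap. Rab38, a small GTPase, measured 118 ± 36.9 in klotho-deficient roots, against 178 ± 45.6 in wild-type roots, and was under background on all klotho-deficient arrays. Calcr, the calcitonin receptor, was under background on all 6 arrays, so no difference could be read from it. Mmp9, a gelatinase, overlapped between the genotypes. It gave 468.6, 471.5 and 608.4 in klotho-deficient roots, against 434.3, 520.3 and 342.1 in wild-type roots. Calcr and Mmp9 were picked for mention after their values were seen.

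Genes on the vacuolar proton pump list, which held accessory proteins and not every subunit, had 11 of 15 differences below 0, with a median of -0.11. Atp6v0e, Atp6v0b and Atp6v1g1, which had the smallest p-values among them, differed by -0.41 ± 0.27, -0.37 ± 0.25 and -0.24 ± 0.21. Atp6v0e alone had no overlap (6.67% of the list, against 5.71% of all probe sets lower). Atp6v0d1, the widely expressed counterpart of Atp6v0d2, differed by 0.14 ± 0.21. Tcirg1, a pump subunit counted with the other osteoclast genes, differed by -0.16 ± 0.30. Atp6v0d1 and Tcirg1 were picked for mention after their values were seen. Cathepsins and lysosomal proteins had a median of -0.04 over 12 genes. Gpnmb, a glycoprotein of macrophages and osteoclasts, gave 0.68 ± 0.41, the aminopeptidase cathepsin H (Ctsh) -0.40 ± 0.25 and the cathepsin inhibitor cystatin C (Cst3) -0.28 ± 0.22. Ctsh alone of the 12 had no overlap (8.33%, against 5.71% of all probe sets lower).

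Signalling genes downstream of RANK had 13 of 19 differences above 0, with a median of 0.14. Without overlap were 0 of the 19 (0%, against 5.96% of all probe sets higher and 5.71% lower). The adaptors Tab1 and Traf2 differed by 0.34 ± 0.26 and -0.43 ± 0.36, and the deubiquitinase Cyld, which restrains the pathway, by 0.24 ± 0.22. Osteoclast transcription factors other than Nfatc1 had 13 of 17 above 0 and a median of 0.07. Junb, an AP-1 subunit, measured 242 ± 45 in klotho-deficient roots, against 160.4 ± 20.9 in wild-type roots (0.58 ± 0.24, limma adjusted p = 0.926). Junb alone of the 17 had no overlap (5.88%, against 5.96% of all probe sets higher). Camk4, a calcium-dependent kinase, and Prdm1, a repressor of osteoclast inhibitors, differed by 0.57 ± 0.27 and 0.52 ± 0.37.

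Inhibitors of osteoclast differentiation had 9 of 12 differences above 0. Rcan2, an inhibitor of calcineurin, the phosphatase that activates NFATc1, measured 18370 ± 1114 in klotho-deficient roots, against 28313 ± 1857 in wild-type roots. Its arrays did not overlap (-0.62 ± 0.19, limma adjusted p = 0.83). Bcl6, a repressor of osteoclast genes, and Lgr4, a receptor that also binds RANKL, differed by 0.71 ± 0.32 and 0.32 ± 0.21. Lgr4 was the 1 gene of the list higher without overlap and Rcan2 the 1 lower (8.33% each, against 5.96% and 5.71% of all probe sets).

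Genes of co-stimulation and calcium signalling had 8 of 16 differences on each side of 0. Ppp3cb, a calcineurin catalytic subunit, differed by 0.27 ± 0.21, the adaptor Lcp2 by -0.82 ± 0.65 and the inhibitory receptor Pirb by 0.41 ± 0.33. Ppp3cb alone of the 16 had no overlap (6.25%, against 5.96% of all probe sets higher). Of the M-CSF axis, which keeps precursors alive, 5 of 6 were below 0. The ligand Csf1 measured 5764 ± 1298 in klotho-deficient roots, against 6585 ± 1080 in wild-type roots. The exchange factor Vav3 differed by -0.24 ± 0.21 and the ubiquitin ligase Cbl by -0.07 ± 0.21. Fusion genes other than the members had 7 of 10 above 0. Among them Pdpn, podoplanin, measured 5150 ± 374 in klotho-deficient roots, against 7313 ± 1042 in wild-type roots. Pdpn alone of the 10 had no overlap (10%, against 5.71% of all probe sets lower). Adam8 and Ctse differed by 0.34 ± 0.37 and 0.20 ± 0.23.

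Stromal regulators of RANKL and osteoprotegerin had 12 of 19 differences above 0 and a median of 0.11. Among them 3 were higher without overlap (15.8%, against 5.96% of all probe sets) and 1 was lower (5.26%, against 5.71% of all probe sets). Ptgs2, the inducible cyclooxygenase, gave 3428.9, 8789.7 and 8634.9 in klotho-deficient roots, against 1096.2, 1457.3 and 2016.9 in wild-type roots (2.11 ± 0.45, limma adjusted p = 0.751). Il6, a cytokine that induces RANKL, gave 74.3, 808.3 and 56.4 in klotho-deficient roots, against 10.1, 6.8 and 8.7 in wild-type roots, with only klotho-deficient replicate 2 above background. Lif, a cytokine of the same family, measured 263.1 ± 70.1 in klotho-deficient roots, against 484.8 ± 80.4 in wild-type roots and had no overlap in the other direction (-0.90 ± 0.27, limma adjusted p = 0.83).

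**Figure D4:**
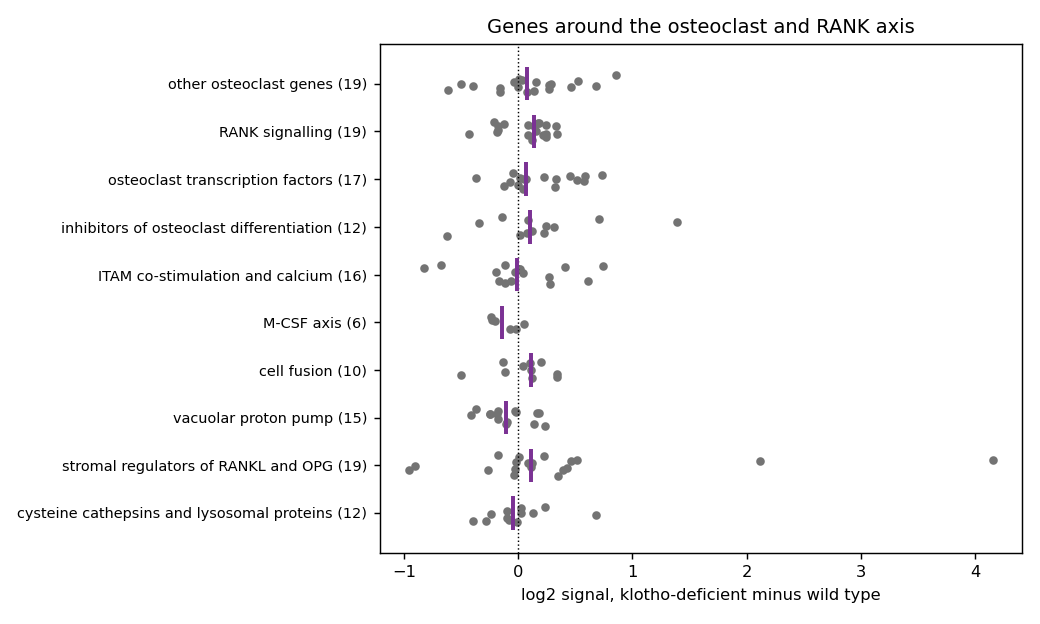
Difference in log2 signal, klotho-deficient minus wild type, for each measured gene (grey points) of 10 lists, with the number measured in brackets, the list median as a purple bar and the median of all genes as a dotted line. List medians lie between -0.14 and 0.14; Ptgs2 lies at 2.11, and the point farthest to the right is Il6, whose place has no exact meaning because all wild-type and 2 klotho-deficient signals were under background.

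Cell types that could carry the members were read from 13 marker lists, of which 1 held the Y-linked genes. Macrophage and monocyte markers, the lineage from which osteoclasts arise, summed over 16 genes to 78829.6 to 102541 in klotho-deficient roots, against 72059.6 to 108335 in wild-type roots. They had 8 of 16 differences above 0 and a median of 0.01. Without overlap were 0 of the 16 (0%, against 5.96% of all probe sets higher and 5.71% lower). Most of the sum came from the bright probe sets of Lyz2, C1qb and Csf1r. The part of macrophage content in the Dcstamp difference was not tested. Csf1r, the M-CSF receptor, gave 11335, 12777.2 and 13531.1 in klotho-deficient roots, against 12332.2, 9256.6 and 15426.8 in wild-type roots. Adgre1, the macrophage antigen F4/80, gave 681.4, 867.6 and 999 in klotho-deficient roots, against 1009.9, 997.3 and 1301.6 in wild-type roots. Mpeg1, a pore-forming protein of macrophages with the smallest p of the list, gave 2304.7, 4394.8 and 6425.2 in klotho-deficient roots, against 1523.5, 1861.4 and 3092.6 in wild-type roots (0.96 ± 0.46, limma adjusted p = 0.93), and was picked after its values were seen.

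Dcstamp is also known from dendritic cells. Their markers, 7 genes, summed to 3122.7 to 4308 in klotho-deficient roots, against 4489.3 to 5190.8 in wild-type roots. Most of that sum was Zbtb46, a transcription factor that endothelial cells share, at 2593.2, 2738.3 and 3077.1 in klotho-deficient roots, against 4548, 3860.9 and 3457.8 in wild-type roots. Flt3, a receptor of dendritic cells, was under background on all arrays, and 5 of the 7 had a difference above 0. Of these Itgax, mentioned after its values were seen, gave 215.7, 374.3 and 643.4 in klotho-deficient roots, against 269.9, 154.9 and 372.1 in wild-type roots (0.58 ± 0.50). The part of dendritic cells in the Dcstamp difference was not tested.

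Neutrophil markers summed over 5 genes to 1255.2 to 1937.1 in klotho-deficient roots, against 524.9 to 888.2 in wild-type roots, and none of the 5 passed. S100a8 and S100a9, calprotectin subunits that monocytes also express, were higher without overlap, 2 of the 5 genes (40%, against 5.96% of all probe sets). S100a9 gave 592.6, 886.8 and 1100.2 in klotho-deficient roots, against 26.3, 24.2 and 307.9 in wild-type roots. The granule proteins Camp and Ngp overlapped, and Cxcr2, the chemokine receptor of neutrophils, was under background on all arrays. T cell markers, a source of RANKL, summed to 2654.9 to 4253.9 in klotho-deficient roots, against 5125.7 to 6147.4 in wild-type roots, with 6 of 7 below 0 and Thy1, which fibroblasts share, the largest part. Osteoblast markers, the other source of RANKL, summed to 1524 to 2342.5 in klotho-deficient roots, against 1439.9 to 2337.5 in wild-type roots, and Sp7, the osteoblast transcription factor, exceeded background only on wild-type replicate 2. Fibroblast, smooth muscle, cardiomyocyte, adipocyte and B cell sums overlapped between the genotypes. The part of these cell types in the member values was not tested.

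**Figure D5:**
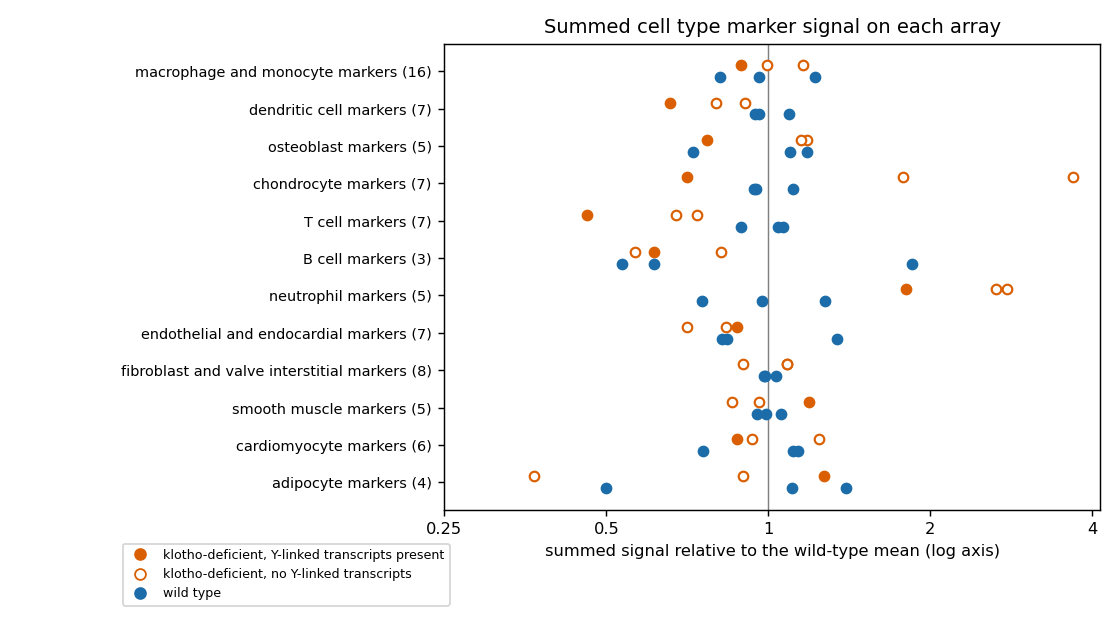
Summed signal of each marker list on each array relative to the wild-type mean, on a log axis, klotho-deficient arrays in orange (open where no Y-linked transcript was present) above wild-type arrays in blue, with the number of genes measured in brackets. Macrophage and fibroblast sums overlap between the genotypes, and the cartilage sum is high on klotho-deficient replicates 2 and 3. Neutrophil sums are higher and T cell and dendritic cell sums lower on all klotho-deficient arrays. Most of the dendritic cell sum is Zbtb46, which endothelial cells share, and the largest part of the T cell sum is Thy1, which fibroblasts share.

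The genes whose profile lay closest to that of Dcstamp were found by the root mean square difference over the 6 arrays of log2 signal minus the wild-type mean, with signals under background raised to 161.8. The 5 closest were Nr1d1, a nuclear receptor of the circadian clock, Slc1a2, a glutamate transporter, Fbxo31, a ubiquitin ligase subunit, Phospho2, a phosphatase, and Cirbp, a cold-induced RNA-binding protein, at distances from 0.20 to 0.23. Nr1d1 gave 2972.2, 2316.4 and 3813.7 in klotho-deficient roots, against 1160.4, 1356.2 and 1222.1 in wild-type roots, and Slc1a2 gave 491.7, 379.6 and 453.7 in klotho-deficient roots, against 190.5, 165.5 and 164.3 in wild-type roots. The other 2 probe sets of Phospho2 differed by -0.19 and -0.29, so the likeness of that gene holds for 1 probe set, and of the other 4 of Slc1a2 1 was below 0. These are the closest of all genes over 6 arrays; none is on the wider lists.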

How the data were processed

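Affymetrix signals were measured in 6 arrays, 3 per genotype. The deposited values are linear intensities, 1 per probe set; RMA is named in the submitters' processing notes without a version, and no source used here states the step that gave a linear scale with 1 trimmed mean on all arrays. Intensities were log2-transformed without an offset. The test was limma 3.58.1, run in R 4.3.3 (lmFit, eBayes, two-sided, Benjamini-Hochberg over 45037 probe sets after leaving out 64 controls, threshold 0.05, 4 residual and 2.18 prior degrees of freedom) and tested on simulated data. Low signals have no floor, so folds of dim probe sets are unstable. Background was the highest of 27 Bacillus control probe sets (161.8). A fold against a genotype under it on all arrays is a bound on the ratio of means, without their spread. Precision is limited by the number of arrays. The annotation gave 1 gene to 34945 probe sets, several to 932 and none to 9160; all 10 members were found in the RefSeq table of GRCm38.p6. Genes off the member list were named as the 3 of smallest p per wider list among those whose mean exceeded background in at least 1 genotype, the 5 nearest to Dcstamp in profile, and defining markers. Others, such as Calcr, Mmp9, Atp6v0d1 and Tcirg1, were picked after their values were seen, which is said where they appear. The members, lists and tests were chosen with earlier results of these data known. Alternatives were a replicate block, other scalings, an offset, a filter on dim probe sets, other variance priors, array weights, 1 probe set per gene, a covariate for Y-linked transcripts, other thresholds and each array left out. Figures were drawn with matplotlib 3.10.9.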

Additional observations from a re-analysis of the deposited data

How the results depend on the processing

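The member counts of 0 called higher and 0 called lower held in every alternative run, the replicate block included, in which 0 probe sets of the whole array were called. The count over all probe sets, 0 higher and 0 lower, moved to 1 higher with an offset of 100, 1 higher without dim probe sets and 2 higher with a trended and robust prior, none of them members. Dcstamp kept its direction in 15 of 15 alternatives, from 1.28 with the offset to 2.02 without wild-type replicate 1, with limma adjusted p from 0.262 to 0.789; with the 95th percentile of the Bacillus controls (116.6) as background, 2 wild-type arrays rather than 0 were above it and the fold is no bound. Direction was kept in every alternative by 8 of 19 probe sets. With the covariate for Y-linked transcripts the sign turned for Ctsk (-0.36), Oscar 1425442_at (-0.16), Tnfrsf11a 1430259_at (0.12), Tnfrsf11b (-0.13 and -0.26), Tnfsf11 1419083_at (-2.68) and Atp6v0d2 1444176_at (-0.044); by construction this leaves 1 klotho-deficient array. Array weights turned Ctsk (-0.14) and Tnfsf11 1419083_at (-0.82), and the offset turned Oscar 1451710_at (0.031); the cause was not tested. Leaving out each array in turn turned the direction of 6 probe sets, which ranged from -0.19 to 0.28 for Ctsk, -0.55 to 0.28 for Oscar 1451710_at, -0.54 to 0.038 for Nfatc1 1428479_at, -0.048 to 0.23 for Tnfrsf11a 1419214_at, -0.96 to 1.64 for Tnfsf11 1419083_at and -0.034 to 0.43 for Tnfsf11 1451944_a_at. Same-numbered arrays of the genotypes had correlations of deviations of 0.18, 0.05 and 0.26, not every array matched its own number best, and the labels do not pair them.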

Other observations

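Within each genotype, the Tnfrsf11a probe set 1430259_at and the summed adipocyte markers put the arrays in the same order. The probe set gave 426.9, 311.3 and 169.2 on klotho-deficient replicates 1, 2 and 3, where the sum over 4 adipocyte genes was 4814.2, 3394.8 and 1391.6. It gave 493.8, 378.3 and 324.2 on wild-type replicates 1, 2 and 3, where the sum was 5285.3, 4187.8 and 1890.1. The other Tnfrsf11a probe set gave 260.3, 220.7 and 227 in klotho-deficient roots, against 278.1, 212.9 and 189.4 in wild-type roots. This was noticed after the values were seen, among 13 marker lists and 19 probe sets, and was not tested.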
